A study of Mus musculus with 12 samples.

Results

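Described here are 10 genes that mark cerebellar granule cells, Gabra6, Gabrd, Neurod1, Neurod2, Zic1, Zic2, Chn2, Slc17a7, Fat2 and Pax6, as they appeared in RNA from a pool of Purkinje cells. They were chosen by symbol from the 43346 annotated genes of the deposited tables, and all 10 were found. The RNA came from 1 male mouse aged 14 months, a B6CASTF1/J hybrid of the Castaneus and C57Bl6 strains. From it, 13 Purkinje cells were cut out of parasagittal tissue and homogenised together, and the lysate was split into 12 libraries of 1 cell-equivalent each, with RNA longer than 200 bases and added spike-in RNA. The libraries carry technical replicate numbers 1 to 6 and 8 to 13, which name them here. They form 1 group, untreated and without a control group, so every comparison is between genes within a library or between splits of the same lysate, and each p-value measures only the technical spread among those splits.

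Granule cells are the small excitatory neurons of the cerebellar cortex. Their axons, the parallel fibres, run through the molecular layer and contact the dendrites of Purkinje cells, the large inhibitory output neurons of the cortex. Granule cells are themselves inhibited by Golgi cells, partly through GABA-A receptors that hold the alpha 6 subunit (Gabra6) and the delta subunit (Gabrd). Neurod1, Neurod2, Zic1, Zic2 and Pax6 encode transcription factors of the granule cell lineage. Slc17a7 encodes VGLUT1, which loads glutamate into synaptic vesicles, Fat2 a large cadherin found on parallel fibres, and Chn2 beta-chimaerin, which switches off the small GTPase Rac.

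Upstream sequences are shown for 3 sets of genes on which the results below turn: Gabra6, whose level was followed across libraries; Chn2, at 1 of the transcript starts that library 12 used and the other libraries hardly did; and the related pair Neurod1 and Neurod2. Each sequence is 5′ to 3′ on the gene's strand, comes from the 250 bases before the gene's start in RefSeq on GRCm38.p6, in which 8 of the 10 genes had an entry. It is cut where it first meets an annotated exon of any gene, so the Neurod1 and Chn2 sequences, like that of Neurod2, stop short of the RefSeq start, which lies at 79456636 for Neurod1, 54269156 for Chn2 and 98329645 for Neurod2. Capitals mark CANNTG, the E-box that basic helix-loop-helix factors such as Neurod1 bind, which reads the same way on both strands.
Gabra6, chr11:42321073-42321322, minus strand: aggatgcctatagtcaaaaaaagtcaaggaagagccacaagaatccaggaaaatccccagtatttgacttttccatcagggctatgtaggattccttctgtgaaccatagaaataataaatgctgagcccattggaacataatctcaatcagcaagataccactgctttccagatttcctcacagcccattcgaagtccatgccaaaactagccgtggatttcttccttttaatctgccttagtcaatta
Chn2, chr6:54268906-54269146, plus strand: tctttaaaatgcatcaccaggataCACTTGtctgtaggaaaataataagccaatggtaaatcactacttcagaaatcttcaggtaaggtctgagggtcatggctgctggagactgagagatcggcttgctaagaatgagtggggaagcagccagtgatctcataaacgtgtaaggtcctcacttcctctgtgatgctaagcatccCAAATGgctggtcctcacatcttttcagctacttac
Neurod1, chr2:79456786-79456886, minus strand: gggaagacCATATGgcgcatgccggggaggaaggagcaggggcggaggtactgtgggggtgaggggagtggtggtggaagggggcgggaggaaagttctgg
Neurod2, chr11:98329649-98329895, minus strand: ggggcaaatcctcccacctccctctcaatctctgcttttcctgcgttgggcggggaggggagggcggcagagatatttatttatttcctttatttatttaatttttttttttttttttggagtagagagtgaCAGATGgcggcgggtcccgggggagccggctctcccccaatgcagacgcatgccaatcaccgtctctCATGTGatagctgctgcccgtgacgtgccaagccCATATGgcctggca
The Gabra6 sequence of 250 bases held no CANNTG, the Chn2 sequence of 241 bases held 2, the Neurod1 sequence of 101 bases held 1 and the Neurod2 sequence of 247 bases held 3. Among all 32851 RefSeq promoters cut to the same lengths, the share with at least 1 match was 66.2%, 65.2%, 36.5% and 65.9% in that order. The narrower form CAGATG, with CATCTG for the other strand, lies within CANNTG. It occurred once, in Neurod2, and in 14.4% of all promoters of that length. A match is a description of these letters and not a binding site.

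The pool carried Purkinje cell RNA first of all. Of 12 Purkinje cell genes, 11 reached 50 expected counts in every library, and their TPM (a level scaled for transcript length and for the library's total) summed to 28437 ± 5668 (SD, n = 12). The 10 granule cell genes summed to 369 ± 170.1 TPM, with 101 TPM in library 11 as the lowest, a median of 352 TPM and 651 TPM in library 9 as the highest. Set against the Purkinje genes of the same library, the granule sum was 1.39 ± 0.777%, from 0.375% in library 11 to 2.76% in library 9. The Purkinje sum was led by Pcp4, Pcp2 and Gng13, with means of 7724, 7156 and 5459 TPM. The ratio therefore depends on which genes are listed and is not a share of cells. In such a homogenate, fewer cells of a type and less RNA per cell cannot be told apart. Annotated genes held 13694551 expected counts in the shallowest library, 5, and 24108916 in the deepest, 10, and the gene counts per spike-in count lay between 5.86 and 19.9.

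**Figure D1:**
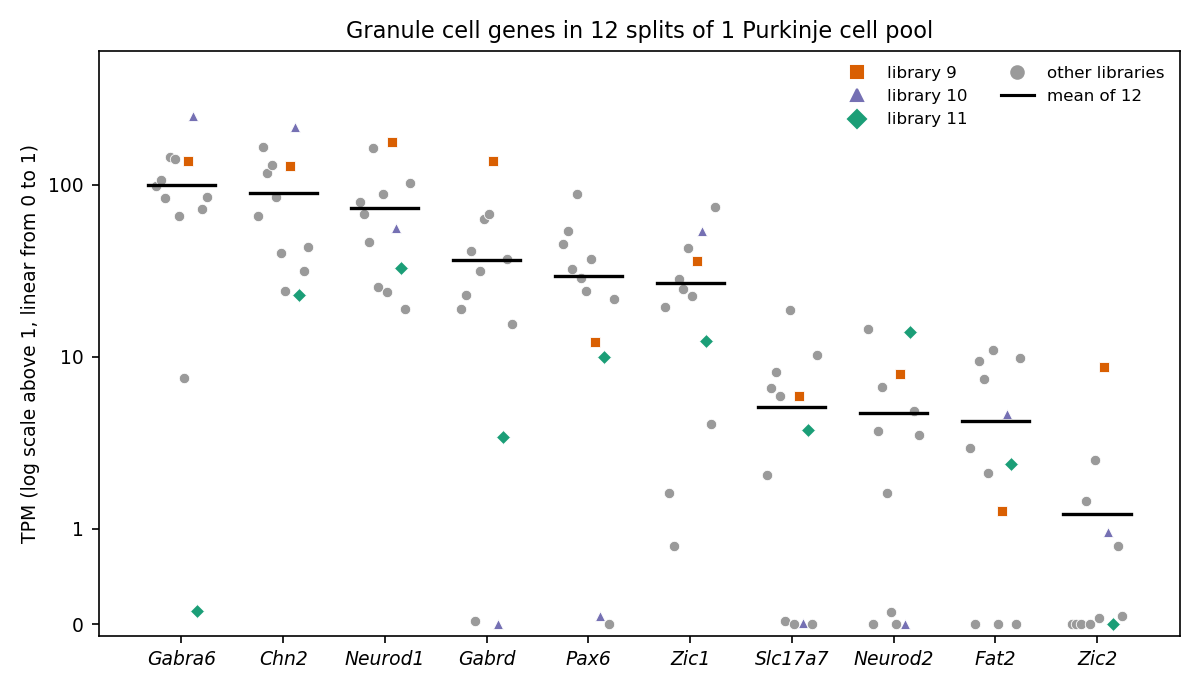
TPM of each granule cell gene (vertical axis, log scale above 1 and linear from 0 to 1) in the 12 libraries, with genes along the horizontal axis in order of mean TPM. Each point is 1 library and each black bar the mean of 12. Gabra6, Chn2 and Neurod1 lead, and Gabra6 drops to 0.14 TPM in library 11 (green diamond) against 249.9 TPM in library 10 (triangle).

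Gabra6 (ENSMUSG00000020428.9; mm10 chromosome 11, 42306437 to 42321072, minus strand) had the highest mean, 99.2 ± 66.4 TPM (SD, n = 12). Its lowest value was 0.14 TPM in library 11, its median 91.3 TPM and its highest 249.9 TPM in library 10. Library 11 held 5 Gabra6 counts and library 8 held 424, while the other 10 libraries lay between 2563 and 12847 counts. Gabrd (ENSMUSG00000029054.4; chromosome 4, 155384980 to 155398112, minus strand) averaged 36.5 ± 38.7 TPM. It had no count in library 10, which allows up to 0.124 CPM there (counts scaled to the library's gene total), 1 count in library 4, a median of 27.2 TPM and a highest value of 137 TPM in library 9. The libraries with at most 1 Gabrd count, 4 and 10, had 144 and 249.9 TPM of Gabra6, the highest in TPM, though by counts libraries 2 and 9 exceeded library 4. Limits and intervals of this kind cover counting error only, since the reads carry no molecular identifiers.

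Within libraries, genes were compared on the log2(TPM + 1) scale with an exact sign-flip permutation test, two-sided and adjusted over 9 pairs of related genes, in which the smallest unadjusted p that 4096 sign patterns can give is 0.000488. Gabra6 minus Gabrd was 1.76 ± 3.19 (SD, n = 12), higher in 10 of 12 libraries and lower in libraries 8 and 11, and missed the threshold (adjusted p = 0.0819, exact test). It passed without library 8 (2.20, adjusted p = 0.0143) or without library 11 (2.10, adjusted p = 0.0363). The groups of values overlapped: library 9 had 137 TPM of each gene. A beta subunit that can complete such receptors, Gabrb2, averaged 12.1 ± 18.9 TPM with 50 counts or more in 5 libraries.

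The transcription factors spanned a wide range. Neurod1 (ENSMUSG00000034701.9; chromosome 2, 79452521 to 79456751, minus strand), needed for granule cells to differentiate and survive, averaged 73.3 ± 52.3 TPM (SD, n = 12). Its lowest value was 19.0 TPM in library 12, its median 61.6 TPM and its highest 176 TPM in library 9, and every library had at least 894 counts. Neurod1 shares 201 exon bases with Cerkl on the same strand, where the division of reads is uncertain, and Cerkl averaged 3.41 TPM. Neurod2 (ENSMUSG00000038255.6; chromosome 11, 98325415 to 98329648, minus strand), its close relative, averaged 4.73 ± 5.16 TPM. It had no count in libraries 2, 8 and 10, a median of 3.61 TPM and a highest value of 14.4 TPM in library 1. Neurod1 exceeded Neurod2 by 4.01 ± 1.66 on the log2(TPM + 1) scale, in 12 of 12 libraries (adjusted p = 0.0011, exact sign-flip permutation test). Library 11 had the smallest gap, with 32.6 TPM of Neurod1 and 13.9 TPM of Neurod2.

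The Zic zinc finger genes showed a like contrast. Zic1 (ENSMUSG00000032368.10; chromosome 9, 91358058 to 91365810, minus strand) averaged 26.7 ± 22.3 TPM, with 0.82 TPM in library 3 as the lowest, a median of 23.5 TPM and 74.5 TPM in library 13 as the highest (SD, n = 12). Zic2 (ENSMUSG00000061524.8; chromosome 14, 122475435 to 122479852, plus strand) averaged 1.22 ± 2.50 TPM, had no count in libraries 1, 2, 3, 5 and 11, and stood at 8.75 TPM in library 9, its highest value. Its median was 0.075 TPM, so its mean rests largely on that library. Zic1 exceeded Zic2 by 3.42 ± 1.64 in 12 of 12 libraries (adjusted p = 0.0011, exact test). Zic1 shares 60 exon bases with Zic4 on the opposite strand, and the strand of the libraries is not given, so reads over those bases cannot be assigned to either gene. Zic4 itself averaged 28.05 ± 35.5 TPM and reached 50 counts in 7 libraries, against 12 for Zic1.

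Pax6 (ENSMUSG00000027168.17; chromosome 2, 105668900 to 105697364, plus strand), a paired-box factor of the granule cell lineage, averaged 29.4 ± 24.9 TPM. It had no count in library 12 and 3 counts in library 10, a median of 26.4 TPM and a highest value of 87.8 TPM in library 4. Pax2, the paired-box gene of Golgi and other inhibitory interneurons, reached 50 counts in 2 libraries and averaged 0.269 ± 0.640 TPM. Pax6 exceeded Pax2 by 3.89 ± 1.90 on the log2(TPM + 1) scale and was higher in 11 of 12 libraries, with library 12 listing both at 0 (adjusted p = 0.00176, exact test). Pax2 had no count in 10 libraries, where no difference could be negative. The p therefore reflects mainly how many libraries held any Pax6 count. The size depends on the pseudocount, with 6.23 at 0.1 and 1.66 at 10. The antisense gene Pax6os1 shares no exon base with Pax6, averaged 16.6 TPM and reached 50 counts in 1 library.

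Chn2, Slc17a7 and Fat2 take part in signalling, transmitter loading and adhesion. Chn2 (ENSMUSG00000004633.13; chromosome 6, 54039554 to 54301810, plus strand) averaged 89.0 ± 62.4 TPM, with 22.8 TPM in library 11 as the lowest, a median of 75.3 TPM and 216 TPM in library 10 as the highest (SD, n = 12). Its relative Chn1, alpha-chimaerin, which is widely expressed in neurons, averaged 189 ± 104 TPM, and Chn2 was below it in 12 of 12 libraries (log2 difference −1.16 ± 1.07; adjusted p = 0.0011, exact test). In libraries 9 and 11 the pair lay close together: Chn2 stood at 129 TPM against 136 TPM of Chn1 in library 9, and at 22.8 TPM against 27.1 TPM in library 11.

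Slc17a7 (ENSMUSG00000070570.4; chromosome 7, 45163949 to 45176142, plus strand) averaged 5.11 ± 5.56 TPM. It had no count in libraries 8 and 12, 1 count in libraries 5 and 10, a median of 4.82 TPM and a highest value of 18.8 TPM in library 6. Slc17a6, the transporter VGLUT2 found in climbing fibres and some mossy fibres, was at 0 throughout, which allows up to 0.0137 CPM over the 12 libraries. Slc17a7 minus Slc17a6 was 1.95 ± 1.57 on the log2(TPM + 1) scale, a value set by the pseudocount of 1 because Slc17a6 is listed at 0, and it was higher in 10 of 12 libraries (adjusted p = 0.00251, exact test). With Slc17a6 at 0 throughout, no difference could be negative. The p therefore reflects only how many libraries held any Slc17a7 count and is no evidence on the pair beyond that. Fat2 (ENSMUSG00000055333.10; chromosome 11, 55250609 to 55336564, minus strand) averaged 4.25 ± 4.11 TPM. It had no count in libraries 8 and 12, 1 count in library 2, a median of 2.65 TPM and a highest value of 10.9 TPM in library 6. Fat1, the family member of wide expression in epithelia and glia, averaged 21.3 ± 16.2 TPM, and Fat2 was below it in 11 of 12 libraries (log2 difference −1.90 ± 1.32; adjusted p = 0.0022, exact test). The exception was library 6, with 10.9 TPM of Fat2 and 6.66 TPM of Fat1.

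**Figure D2:**
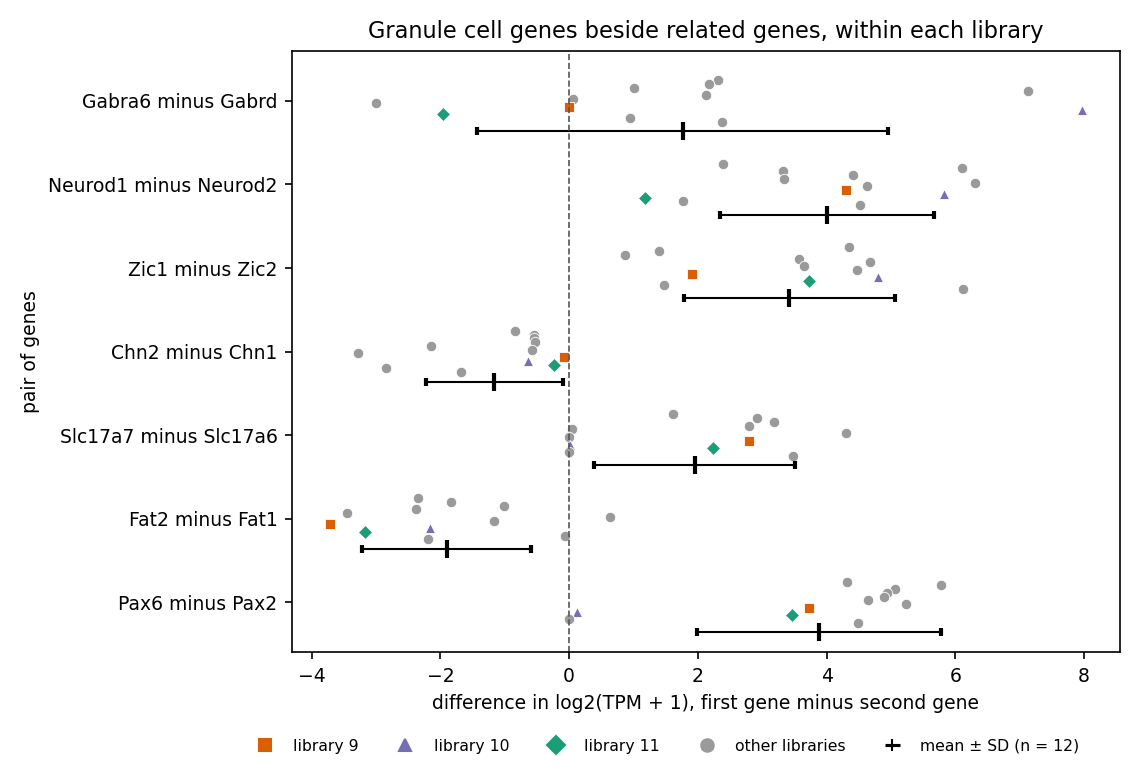
Difference in log2(TPM + 1) between the first and the second gene of 7 pairs (horizontal axis), with 1 point per library and the mean ± SD (n = 12) under each row. Neurod1 minus Neurod2 and Zic1 minus Zic2 lie above 0 in all 12 libraries and Chn2 minus Chn1 lies below 0 in all 12, while Gabra6 minus Gabrd falls on both sides.

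In order of mean TPM the genes ran Gabra6, Chn2, Neurod1, Gabrd, Pax6, Zic1, Slc17a7, Neurod2, Fat2 and Zic2. Of the 9 neighbouring steps in that order, only that from Zic1 to Slc17a7 was larger than 1 SD of the difference within libraries, at 21.6 ± 21.3 TPM, with Zic1 higher in 10 of 12 libraries. The gene with the highest level changed from split to split: Neurod1 led in 5 libraries, Gabra6 in 4, Chn2 in 2 and Gabrd in 1. The leading gene held between 24.8% of the summed TPM of the 10 genes, in library 6, and 43.0%, in library 10.

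At a threshold of 50 expected counts, 3 of the 10 genes, Neurod1, Zic1 and Chn2, were detected in all 12 libraries. Over all annotated genes the share detected in all 12 was 3.72% (1613 of 43346), and over the 5385 genes with a mean of 10 to 100 TPM, a range that holds 6 of the 10, it was 13.7%. Gabra6 was detected in 11 libraries, Gabrd and Pax6 in 10, Fat2 in 9, Neurod2 and Slc17a7 in 8 and Zic2 in 4. Of the 120 combinations of gene and library, 96 reached 50 counts, 10 had from 1 to under 50 and 14 had none. Few values lay between 0 and the threshold.

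**Figure D3:**
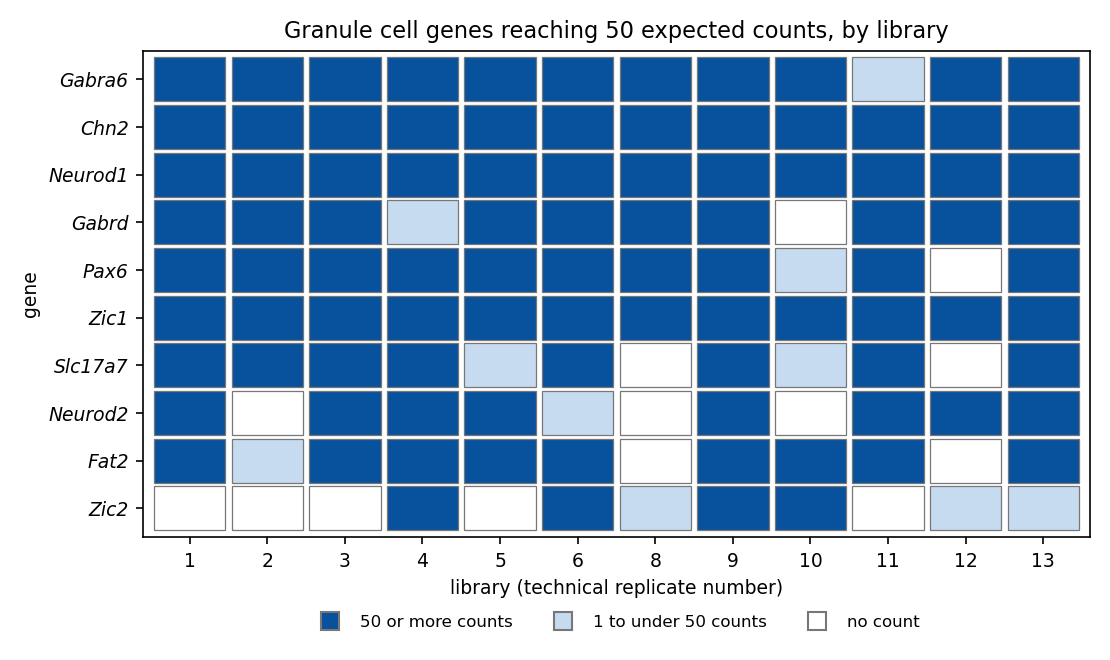
Detection of each granule cell gene (rows, in order of mean TPM) in each library (columns, by technical replicate number), with dark cells for 50 or more expected counts, pale cells for 1 to under 50 and white cells for none. Library 9 has dark cells for all 10 genes, and libraries 8, 10 and 12 have 6 each.

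Library by library, the sets of detected genes were mostly different. Library 9 had all 10 genes at 50 counts or more. Libraries 1, 3 and 13 lacked only Zic2, library 4 lacked only Gabrd and library 6 only Neurod2. Library 5 lacked Zic2 and Slc17a7, library 11 Gabra6 and Zic2, and library 2 Neurod2, Zic2 and Fat2. Libraries 8, 10 and 12 lacked 4 each: Neurod2, Zic2, Slc17a7 and Fat2 in library 8, Gabrd, Neurod2, Slc17a7 and Pax6 in library 10, and Zic2, Slc17a7, Fat2 and Pax6 in library 12. Of these, library 10 was the deepest of the 12. In all there were 10 distinct sets.

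Pair by pair, 36 of the 45 pairs of granule cell genes were both at 50 counts or more in at least 6 libraries, with a median of 8 libraries and a range of 2 to 12. All pairs below 6 libraries included Zic2, which was itself detected in 4. No share over pairs of other genes is given, so the number says nothing particular to granule cell genes. The 3 pairs among Neurod1, Zic1 and Chn2 were together in all 12. Gabra6 and Gabrd were together in 9 libraries, with Gabra6 alone in 2 (4 and 10) and Gabrd alone in 1 (11). Slc17a7 was never detected without Pax6: both were present in 8 libraries, Pax6 alone in 2 and neither in 2. Likewise, Zic2 was never detected without Gabra6 or without Fat2, with 4 libraries holding both in each case. Gabrd and Zic2 met in 2 libraries, as did Neurod2 and Zic2, which were the lowest counts. Where 1 gene is detected in all 12 libraries its joint count equals the other gene's own count, so these numbers largely restate the detection of the rarer gene.

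Compared with annotated genes whose mean count lay within a factor of 1.25, some granule cell genes were detected in more libraries. Neurod2 and Slc17a7 were each found in 8 libraries, against a median of 4 for genes of like mean count, and 5.58% and 5.59% of those genes were found in as many or more. Pax6 was found in 10 libraries against a median of 7 (10.9% as many or more) and Zic2 in 4 against a median of 2 (11.9%). Gabra6 went the other way, with 11 libraries against a median of 12, and 97.1% of the 420 genes of like count were found in as many or more. The missing library was 11. Chn2, Neurod1 and Fat2 lay at the median of their windows, with 12, 12 and 9 libraries, and Gabrd and Zic1 lay 1 library above theirs, at 10 and 12. In that order, 91.2%, 72.6%, 54.7%, 47.0% and 49.7% of genes of like count were found in as many libraries or more. Beside genes of like mean TPM instead, which compares long genes with shorter ones of fewer counts, Gabra6 stood at its median of 11 libraries and Fat2, with a very long transcript, at 9 against a median of 3 (3.38% as many or more). On that scale Pax6 stood at 10 against a median of 8 (38.4%) and Zic1 at 12 against a median of 8 (13.1%), while Neurod2 and Slc17a7, at 8 each, kept medians of 3 and 4 (7.74% and 8.78%) and Zic2, at 4, a median of 1 (10.1%).

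**Figure D4:**
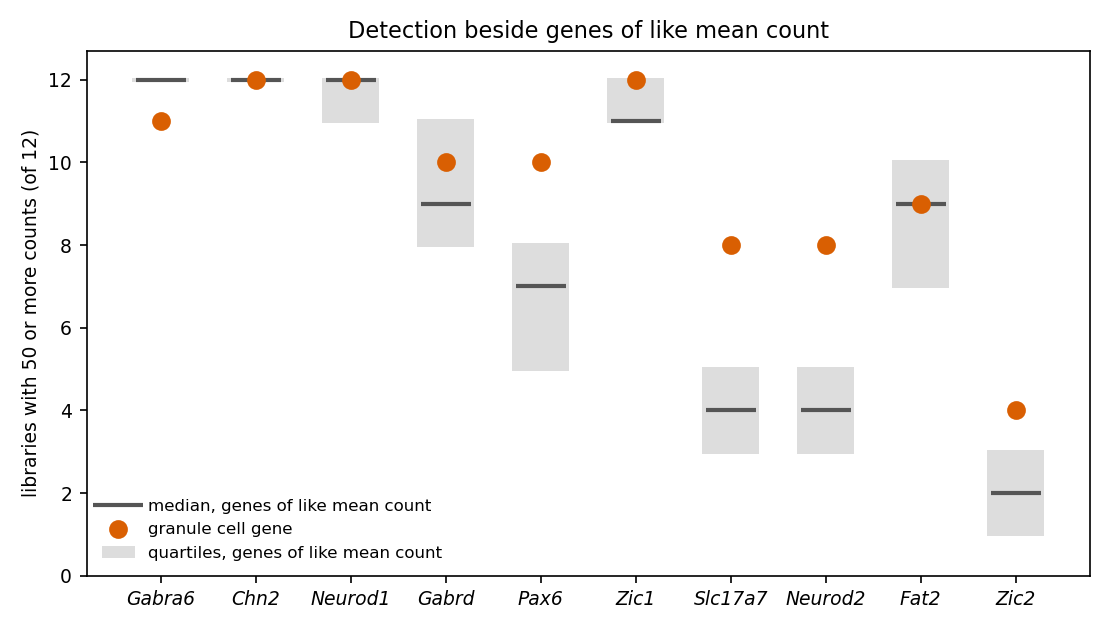
Number of libraries with 50 or more counts (vertical axis, of 12) for each granule cell gene (orange points) beside the median (dark bar) and quartiles (grey block) of annotated genes whose mean count lay within a factor of 1.25. Neurod2 and Slc17a7 stand at 8 libraries over a median of 4, and Gabra6 at 11 under a median of 12.

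Variation between splits was measured in edgeR, with each gene's quasi-dispersion set against the trend of genes of like abundance. None of the 10 genes varied beyond the trend after Benjamini-Hochberg adjustment, and none had an unadjusted p under 0.05. Of all 13899 genes tested, 2 passed (0.0144%), so a count of 0 among 10 is near the background. Gabra6 had the highest ratio of quasi-dispersion to trend, 1.97 (unadjusted p = 0.168, adjusted p = 0.773, edgeR), and without library 11 that ratio was 0.755. Fat2 stood at 1.51, Gabrd at 1.23, Chn2 at 1.05 and Zic1 at 0.933. The others lay below, with Zic2 at 0.714, Neurod2 at 0.637, Slc17a7 at 0.581, Pax6 at 0.512 and Neurod1 lowest at 0.502.

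Across the 12 libraries, Chn2 was the granule cell gene whose TPM ran closest to that of Gabra6. Its Spearman rho with Gabra6 was 0.888 (Pearson's r 0.852, n = 12), rank 3 among the 5211 annotated genes with a mean of at least 10 TPM and 50 counts or more in at least 6 libraries, whose median rho was 0.042. Without library 11 the rho was 0.855, and without libraries 10 and 11, the farthest from the Gabra6 median, it was 0.806. The genes nearest to Gabra6 that were not among the 10 were Rit2, a small GTPase of neurons (0.958), Bad, a member of the BCL2 family that promotes cell death (0.911), the RNA-binding protein Hnrnpab (0.886), the ribosome export adaptor Nmd3 (0.881) and the mitochondrial enzyme Clybl (0.860). Like Gabra6, Rit2 was highest in library 10, at 141 TPM, and near 0 in library 11, at 0.04 TPM. Rit2 and the others were picked for their high rho among 5211 genes, so their likeness to Gabra6 follows from the choice. These points share 1 lysate, and each library's depth and TPM total enter both values, so the correlations are given as a description. How high the top values among 5211 genes would lie without any relation, at n = 12, was not computed.

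The remaining granule cell genes did not track Gabra6 in the same way. Neurod1 had a rho of 0.420 with Gabra6, Zic1 0.350, Zic2 0.225 and Pax6 0.182, while Fat2 (0.063), Slc17a7 (−0.049) and Neurod2 (−0.099) lay closer to 0. Gabrd, the receptor partner of Gabra6, had the lowest, −0.392, with −0.618 without library 11 and −0.491 without libraries 10 and 11. Neurod2 depended on the same libraries, with a rho of 0.119 without library 11 and 0.407 without libraries 10 and 11, and Pax6 had 0.064 and 0.321 under those settings. Over the 45 pairs of granule cell genes, 30 had a rho above 0, with a median of 0.140 and a range from −0.392 for Gabra6 with Gabrd to 0.888 for Gabra6 with Chn2.

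**Figure D5:**
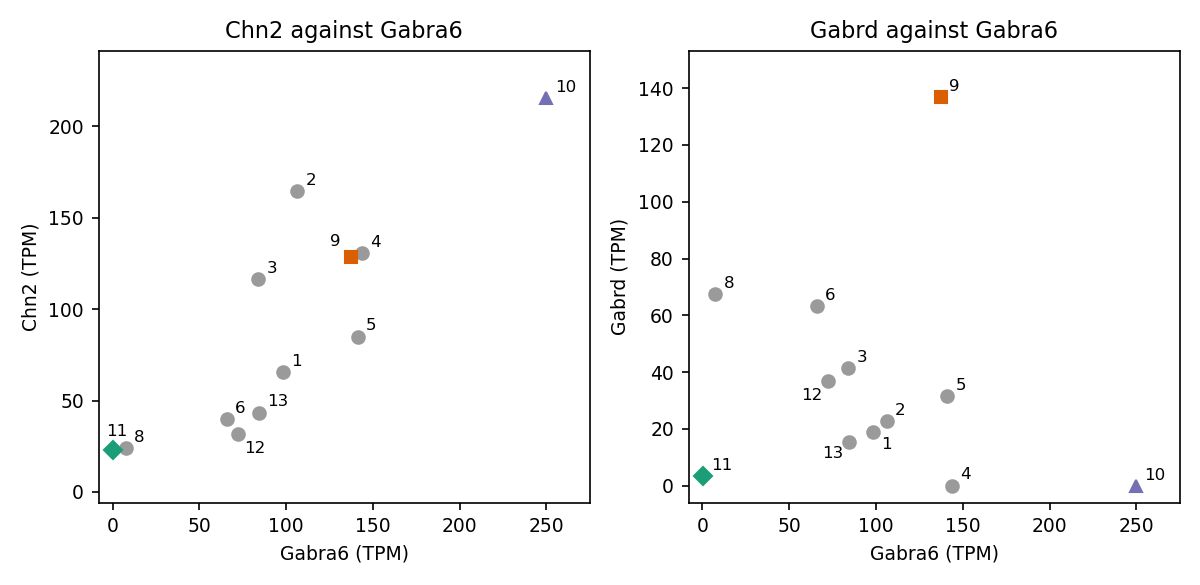
TPM of Chn2 (left, vertical axis) and Gabrd (right, vertical axis) against TPM of Gabra6 (horizontal axes), with 1 point per library labelled by its technical replicate number. Library 10 is highest for both Gabra6 (249.9 TPM) and Chn2 (216 TPM), whereas Gabrd had no count there and was highest in library 9 (137 TPM).

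The slope of each gene on log2(Gabra6 CPM + 1) was then tested in edgeR over 13898 genes, with Benjamini-Hochberg adjustment. No gene passed in either direction (0% with a positive slope and 0% with a negative slope), the granule cell genes included, and 1554 genes had an unadjusted p under 0.05. DESeq2 called 2485 genes and limma 1, none of them a granule cell gene. Chn2 had the smallest p of the 9 tested granule cell genes, with a slope of 0.31 ± 0.13 (SE; unadjusted p = 0.0311, adjusted p = 0.366), and it was 0.63 without library 11. Zic2 had a slope of 1.24 ± 0.80 (adjusted p = 0.600). The slope was positive for 7 of the 9, against 9347 of the 13898 genes, and the median slope was 0.12 against 0.33 over all genes tested. Without library 11 that order turned, with a median of 0.44 over the 9 and 0.29 over all genes, and without library 8 the medians were 0.13 and 0.64. Library 11 stood apart on the scale of this fit, at 0.44 against 4.34 to 9.06 in the other 11 libraries. Every granule cell slope moved when it was left out: to 2.38 for Neurod2, against −0.21 with it, to −0.33 for Gabrd, against 0.11, and to −0.34 for Pax6, against −0.07. Fat2 moved to 0.89, against 0.12, Slc17a7 to 0.30, against 0.03, Neurod1 to 0.44, against 0.18, Zic1 to 0.34, against 0.15, and Zic2 to 1.48, against 1.24.

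The genes with the smallest p in that fit were chiefly those found in library 11. Ndor1, an electron transfer enzyme, stood at 181 TPM there and at most 0.04 TPM elsewhere, Thegl at 123 TPM, Adgre5, an adhesion receptor, at 32.6 TPM and Gm8116 at 21.2 TPM, and their adjusted p lay between 0.0736 and 0.0873 (edgeR). The fifth, Gtf2i, a general transcription factor, was found in 11 libraries with a slope of 1.24 ± 0.23 (adjusted p = 0.0909). It stood at 0.16 TPM in library 11 and at 183 TPM in library 10, the same libraries in which Gabra6 was lowest and highest. Gtf2i was named for its p in the fit on Gabra6, so this likeness follows from the choice.

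Transcript tables showed which annotated forms carried the TPM of the granule cell genes. Chn2 has 9 annotated transcripts here, and Chn2-202, which starts at 54272490 on chromosome 6, held over 95% of the gene's TPM in 11 libraries. In library 12 it held 0.509%, and Chn2-201, which starts far upstream at 54039573, held 51.9% with Chn2-203, whose upstream sequence is printed above and which starts at 54269156, at 47.6%. Gabra6 has 3 coding transcripts whose starts lie between 42321049 and 42321072, so close together that they share the upstream sequence printed above. Gabra6-203 held most of the TPM in 5 libraries, Gabra6-201 in 5 and Gabra6-202 in 1. How the estimate divides reads between forms with nearly the same start was not tested.

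Pax6 was the least uniform. Of its 26 annotated transcripts, 8 led in at least 1 of the 10 libraries where Pax6 reached 50 counts, and protein-coding forms held 41.8 ± 39.3% of its TPM (SD, n = 10). In library 8 all of it was assigned to Pax6-216, a processed transcript that is not annotated as coding, while in library 9 all was assigned to the coding form Pax6-204. For Fat2, the form starting at 55312257 held all of the TPM in 8 of 9 libraries, and in library 4 the longer-reaching form from 55336564 held 93.3%. Zic1-201 led in 10 of 12 libraries, and Zic1-202, which starts at 91365810 and not at 91365768, led in libraries 5 and 8. Neurod1, Neurod2 and Slc17a7 have 1 annotated transcript each.

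A further list of 16 granule cell genes summed to 372 ± 159.8 TPM (SD, n = 12), and like the 10 genes it was lowest in library 11, at 229 TPM, and highest in library 9, at 686 TPM. Between those ends the lists parted. Library 10 had 581 TPM of the 10 genes and 287 TPM of the 16, and library 13 had 365 and 602 TPM. Calb2, the calcium buffer calretinin, led it at 94.7 ± 68.0 TPM, followed by the transcription factors Nfix at 55.6 ± 36.7 TPM and Etv1 at 30.5 ± 25.9 TPM. Of the 16, 3 reached 50 counts in all libraries, 15 did so in at least 1, and the potassium channel gene Kcnk9 had no count. Genes of granule cell precursors were scarcer: Atoh1, which defines them, and Dcx, of migrating neurons, had no count, and the list of 7 was led by Meis1 at 19.9 ± 31.3 TPM. The sum of that list was highest in library 11, at 110 TPM, where the sum of the 10 genes was lowest. Meis1 alone held 107.7 TPM of it, so that value rests on 1 gene and not on the list. Among genes of unipolar brush cells, excitatory interneurons of the granular layer, Lmx1a and Otx2 had no count and Eomes reached 50 counts in library 12 alone, at 81.1 TPM.

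Genes of other cell types near Purkinje cells were also counted in the same splits. Bergmann glia and astrocyte genes summed to 2694 ± 822 TPM, from 1692 TPM in library 1 to 4578 TPM in library 13, with 8 of 11 at 50 counts in every library and Slc1a3, Hopx and Timp4 leading. Oligodendrocyte genes summed to 203 ± 89.7 TPM, led by Cnp and Mbp, with 1 of 9 at 50 counts in every library. That sum was lowest in library 11, at 101 TPM, and highest in library 9, at 399 TPM, the same libraries as for the granule cell genes. Interneuron genes summed to 37.9 ± 30.2 TPM and were likewise highest in library 9, at 116 TPM, with Sst at 0 and none of 10 in every library. Their lowest sum was 6.62 TPM, in library 4, where the granule cell genes summed to 575 TPM, and library 11 had 39.6 TPM. Microglial genes summed to 124 ± 166 TPM, with 0 TPM in library 11 and 433 TPM in library 9, exceeded by 462 TPM in library 8, and Fcer1g at 0. Endothelial and mural genes summed to 29.6 ± 83.1 TPM, from 0 to 290.1 TPM, with Cldn5, Acta2 and Slco1a4 at 0, and red blood cell genes to 744 ± 322 TPM, from 362 to 1551 TPM. Whether these RNAs entered the splits together with the RNA of the granule cell genes was not tested. Which cells the RNA of the granule cell genes came from, Purkinje cells included, was not tested either.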

How the data were processed

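The data are 12 Smart-seq libraries split from 1 homogenate. The deposited tables of genes and of transcripts hold expected counts (estimated counts that divide shared reads among features), per the file headers. Their TPM columns, also deposited by the authors, include spike-ins in the total that is scaled. Reads were quantified on mm10 with GENCODE M4, per the text deposited with each sample; the aligner, quantifier and strand were not given in the sources used here. Symbols, transcript names and coordinates were taken from GENCODE M21, built on the same assembly (42462 of 43346 gene identifiers matched). Features with numeric identifiers (0.0000607% of counts) were left out.

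Expected counts were rounded for edgeR 4.0.16 (quasi-likelihood, TMM factors, mean count of at least 5, Benjamini-Hochberg over all genes, threshold 0.05), with DESeq2 1.42.0 and limma 3.58.1 as alternatives. Pairs were tested on log2(TPM + 1) by exact sign-flip permutation, two-sided and adjusted over 9 pairs. Fits were also run on simulated counts with known changes. The outcome is not given here, so no power or rate of false calls is stated for them. The genes, lists, pairs and tests were chosen with earlier results of these data known. Named are all 10 genes, the pairs, each list's 3 highest genes and those without a count, the 5 genes nearest to Gabra6 and the 5 with the smallest p. Zic4, Cerkl and Pax6os1 are named because they overlap a granule cell gene. All libraries carry biological replicate number 1, and no label gives a batch. Of the 9 pairs, 2 are not reported here, and 1 gene of a list is left unnamed.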

Additional observations from a re-analysis of the deposited data

How the results depend on the processing

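Over all alternatives and all values recomputed, 598 kept their direction and their side of the threshold, or stayed within 1.5 times for a count, and 19 did not. Gabra6 minus Gabrd passed with a pseudocount of 10 (1.28, adjusted p = 0.0379). With 1 library left out its value ranged from 1.20 to 2.20 (adjusted p 0.0143 to 0.164) and passed in 2 of 12 fits. Slopes on Gabra6 passed in either direction for 2485 genes with DESeq2, 1 with limma and 2 with no filter on low counts. The main edgeR fit had 0. Of these calls, 2318 with DESeq2, 1 with limma and 0 with no filter had a positive slope. None was a granule cell gene, and the cause of the difference was not tested. With 1 library left out, 1 or 2 genes varied beyond the trend, with 1 when library 1 was left out. The slope of Gabrd on Gabra6 turned to −0.029 with limma and ranged from −0.33 to 0.38 with 1 library left out. The slope ranged from −0.27 to 2.38 for Neurod2, from −0.065 to 0.30 for Slc17a7 and from −0.34 to 0.062 for Pax6, and none of these slopes passed in any of those fits. The rest of the pairs kept their calls in every alternative run. Zic2 had a count of at least 1 in 7 libraries, against 4 at 50 counts. At 1 count, 4 of the genes were found in all 12 libraries and 42 pairs in at least 6. Leaving out library 11 or the farthest libraries from the Gabra6 correlations was chosen after seeing the data. Depth does not separate a lost molecule from an absent one in a split of 1 cell-equivalent.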
